A study of Mus musculus with 36 samples.

Results

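The cathepsins are described here by 9 genes, Ctsa, Ctsb, Ctsc, Ctsd, Ctsh, Ctsk, Ctsl, Ctss and Ctsz, chosen by their symbols among the 27562 genes of an RNA-sequencing table of sorted mouse lung cells. All 9 were found once, and all passed the filter on low values. The table holds 36 libraries in 12 groups of 3. The study took 3 mice for each exposure and time, so libraries of different sorted populations may come from the same mice. The labels do not say which. The mice were male lung-shielded chimeras: C57BL/6J hosts (CD45.2) were lethally irradiated behind a chest shield, given busulfan and transplanted with marrow of B6.SJL-Ptprca Pepcb/BoyJ donors (CD45.1), so that all groups, controls included, share irradiation, busulfan and transplantation. They then breathed filtered air (FA) or concentrated fine particulate matter (PM2.5) for 4 or 32 weeks. Alveolar macrophages (AΦ) were sorted as CD64+, CD11c-high and CD11b-low cells, and monocytes as Ly6G-negative, MHC II-negative, CD64-low and CD11b-high cells. At 32 weeks each cell type was split by CD45 allele into tissue-resident AΦ (TR-AΦ, CD45.2), bone marrow-derived AΦ (BM-AΦ, CD45.1), CD45.2 monocytes and CD45.1 monocytes. The labels give no CD45 allele at 4 weeks. The study's text gives CD45.2 for those cells, and they are called here TR-AΦ at 4 weeks and 4-week monocytes. That CD45.1 monocytes are those numbered 1 in the labels rests on the study's key for AΦ.

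Cathepsins are proteases of the lysosome, where macrophages break down engulfed particles, microbes, surfactant and worn proteins. Most are made as inactive precursors, carried to the lysosome by mannose 6-phosphate receptors or sortilin, and activated by cleavage at low pH. They belong to separate enzyme classes: Ctsd is an aspartic protease, Ctsa a serine carboxypeptidase that also holds neuraminidase and beta-galactosidase in a complex, and Ctsb, Ctsc, Ctsh, Ctsk, Ctsl, Ctss and Ctsz are cysteine proteases of the papain family. Ctsk cleaves collagen and elastin and is best known from osteoclasts. Ctss stays active at neutral pH and trims the invariant chain of MHC class II. Ctsl and Ctsb are endopeptidases, Ctsh is an aminopeptidase, Ctsz a carboxypeptidase, and Ctsc removes dipeptides and thereby activates granule serine proteases such as the granzymes.

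In the mouse genome (mm10, positions of GENCODE release M21) Ctsk lies at chr3:95499256-95509362 and Ctss at chr3:95526786-95556403, neighbours on the plus strand with 17423 bases between them. Ctsd lies at chr7:142375911-142388038 on the minus strand and Ctsc at chr7:88278085-88310888 on the plus strand. Ctsa (chr2:164832873-164841032, plus strand) and Ctsz (chr2:174427493-174439039, minus strand) share a chromosome. Ctsb lies at chr14:63122462-63145923 on the plus strand, Ctsl at chr13:64359337-64370890 on the minus strand, and Ctsh at chr9:90054152-90076089 on the plus strand.

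The promoters of 4 genes are printed because these gave the largest contrast between AΦ and monocytes (Ctsd, Ctsk), the highest level in monocytes (Ctss), or a rise with time (Ctsa). Each run holds 250 bases before and 30 bases after the RefSeq start site (GRCm38.p6, the assembly of mm10), 5′ to 3′ on the strand of the gene. Capitals mark matches, on either strand, to the CLEAR core TCACGTGA, a sequence of lysosomal gene promoters bound by the MiT/TFE factors, to the E-box CACGTG that lies within it, to the PU.1 core AGGAAGT (read ACTTCCT on the other strand) or to the ISRE, the interferon-stimulated response element. AP-1 (TGANTCA) was also searched.
Ctsd promoter, minus strand, chr7:142387798-142388077: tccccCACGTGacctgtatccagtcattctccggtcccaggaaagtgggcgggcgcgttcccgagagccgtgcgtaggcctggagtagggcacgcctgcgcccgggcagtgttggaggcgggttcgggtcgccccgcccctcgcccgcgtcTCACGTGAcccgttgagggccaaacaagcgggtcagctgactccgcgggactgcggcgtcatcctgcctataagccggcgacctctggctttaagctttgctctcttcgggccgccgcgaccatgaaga
Ctsa promoter of the second of its 2 entries, plus strand, chr2:164833523-164833802: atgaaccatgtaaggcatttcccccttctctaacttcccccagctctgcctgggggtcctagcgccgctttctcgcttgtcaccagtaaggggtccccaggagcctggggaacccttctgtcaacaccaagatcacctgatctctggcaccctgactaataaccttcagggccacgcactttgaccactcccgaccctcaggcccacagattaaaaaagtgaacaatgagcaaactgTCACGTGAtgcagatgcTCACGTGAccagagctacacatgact
Ctss promoter, plus strand, chr3:95526536-95526815: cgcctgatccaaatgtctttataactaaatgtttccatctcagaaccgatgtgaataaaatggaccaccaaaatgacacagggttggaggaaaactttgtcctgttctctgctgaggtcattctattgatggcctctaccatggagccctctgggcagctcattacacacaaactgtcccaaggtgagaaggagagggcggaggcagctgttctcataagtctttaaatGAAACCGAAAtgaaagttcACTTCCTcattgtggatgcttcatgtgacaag
Ctsk promoter, plus strand, chr3:95498960-95499239: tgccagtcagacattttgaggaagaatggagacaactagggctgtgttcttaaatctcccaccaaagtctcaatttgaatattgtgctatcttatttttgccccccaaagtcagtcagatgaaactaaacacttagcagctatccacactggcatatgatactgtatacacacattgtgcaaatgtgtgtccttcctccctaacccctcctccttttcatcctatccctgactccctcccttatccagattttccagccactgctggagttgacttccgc
RefSeq promoters were given for 7 of the 9 genes, with 8 entries in all, and none for Ctsb and Ctsh. The CLEAR core stood once in the Ctsd promoter, starting at -99 from the start site, and in 1 of the 2 Ctsa promoters, starting at -13 and again at 5. Over all 32851 promoters of the same length, 0.931% held the CLEAR core, 6.79% an E-box, 7.46% an AP-1 site, 8.65% a PU.1 core and 3.28% an ISRE. A further E-box outside a CLEAR core was found at -245 of Ctsd, and the Ctsl promoter held an E-box at -236. The Ctss promoter held an ISRE at -21 and a PU.1 core at -2, and that of Ctsc a PU.1 core at -151. No promoter of a member held the AP-1 letters in this window, and those of Ctsk and Ctsz and the first Ctsa entry held none of the letters searched. In the deposited table the loci of Ctsa, Ctsb, Ctsc, Ctsd, Ctss and Ctsz are merged with neighbouring or overlapping genes (for Ctsd, Ifitm10), and how fragments were shared between them is not stated.

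The values are FPKM, fragments per kilobase of transcript, scaled to the mapped fragments of the library. This scaling does not give equal totals, so small differences between libraries depend on it. Library totals of FPKM lay between 1839577 and 3339020, and the number of genes at 1 FPKM or more ranged from 11469 to 12759. Read depth is not given in the table. No library was identical to another. Pearson's r of log2(FPKM + 1) over all genes between mice of a group ranged from 0.895 to 0.935. The labelled cell types were separated by their own markers. Summed over 12 AΦ markers, FPKM ranged from 6519 to 13958 in 18 AΦ libraries and from 281 to 1675 in 18 monocyte libraries. Over 10 monocyte markers it ranged from 86.8 to 534 in AΦ and from 1608 to 4829 in monocytes. In CD45.2 monocytes at 32 weeks 8 interstitial macrophage markers summed to 1254 to 3870 FPKM, and the monocyte markers to 1608 to 3619. The part of such cells in comparisons with these monocytes was not tested. Within groups the summed FPKM of the 9 genes followed the replicate numbers of the labels. It was highest in the mouse numbered 2 in 10 of 12 groups and lowest in the mouse numbered 0 in 9 of 12. Not every member did so: Ctsh was highest in number 0 in 6 of 12 groups and in number 2 in 2. The summed AΦ markers were also mostly highest in number 2, so the pattern is not particular to the cathepsins. The labels do not say what the numbers stand for.

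The 4-week monocytes were not alike for Ctse, Chil1 and Ppfia4, genes whose levels separated the CD45 alleles of monocytes at 32 weeks. This touches every comparison with 4-week monocytes. Ctse, cathepsin E, an aspartic protease outside the 9 members, lies at chr1:131638306-131675505, 6.4 megabases from Ptprc, the gene that encodes CD45. At 32 weeks Ctse ranged from 39.4 to 61.5 FPKM in the 6 libraries of CD45.1 monocytes and from 1.46 to 3.53 in the 6 of CD45.2 monocytes. In the 4-week monocytes it was 54.4, 52.7 and 47.5 FPKM in FA mice, and 3.91, 6.51 and 60.6 in PM2.5 mice. Chil1, a chitinase-like gene 3.9 megabases from Ptprc, was at 37.9, 71.6 and 51.9 FPKM in FA mice and 2.22, 13.9 and 44.8 in PM2.5 mice, against 25.1 to 63.2 in CD45.1 and 0 to 0.414 in CD45.2 monocytes at 32 weeks. PM2.5 mice 0 and 1 thus lay between both ranges, and on the log2 scale 5 of the 6 libraries were nearer to CD45.1 cells for this gene. Ppfia4, 3.7 megabases from Ptprc, ran the other way: it was 1.81, 1.59 and 0.889 FPKM in FA mice and 8.67, 6.80 and 0.711 in PM2.5 mice, against 0.042 to 0.264 in CD45.1 and 6.02 to 11 in CD45.2 monocytes at 32 weeks. For Ppfia4 the FA mice and PM2.5 mouse 2 thus lay between both ranges, and PM2.5 mice 0 and 1 within that of CD45.2 cells. For Ctse, 4 of the 6 libraries of 4-week monocytes had the level of CD45.1 cells although the study's text gives CD45.2. The 2 PM2.5 libraries numbered 0 and 1 did not. The cause of these levels was not tested. In TR-AΦ at 4 weeks the mice numbered 2 stood apart for Ctse, at 1.82 FPKM in FA and 2.85 in PM2.5, against 0 to 0.0966 in the others. Chil1 was at 3.08 and 1.82 FPKM in those libraries and at 0 to 0.305 in the others. Ppfia4 did not set them apart, at 1.04 and 1.09 FPKM against 0.975 to 2.36. Ctse, Chil1 and Ppfia4 were picked after their values were seen. Without the 2 PM2.5 libraries of 4-week monocytes numbered 0 and 1, no call between TR-AΦ and monocytes at 4 weeks changed. The number of calls over time without them is given with those results.

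In AΦ the most abundant cathepsin mRNA was Ctsd, followed by Ctss. Over the 18 AΦ libraries Ctsd averaged 2129 FPKM, rank 131 of all genes, and Ctss 1134 FPKM, rank 198, and Ctsd exceeded Ctss in all 18. Ctsz followed with 357 FPKM, Ctsc with 294, Ctsb with 168, Ctsk with 106, Ctsl with 74.1, Ctsa with 59.7 and Ctsh with 43.4. Of neighbours in this order the ranges of Ctss and Ctsz did not overlap, and those of the other pairs did. Within libraries Ctsc exceeded Ctsb in all 18, Ctsb exceeded Ctsk and Ctsk exceeded Ctsl in 17, Ctsz exceeded Ctsc in 15, and Ctsl exceeded Ctsa and Ctsa exceeded Ctsh in 14. In monocytes Ctss came first with a mean of 765 FPKM, rank 311, above each of the others in all 18 libraries. Ctsb with 264 FPKM, Ctsc with 262, Ctsz with 219.5 and Ctsd with 190.2 overlapped over the 18 libraries, although Ctsz exceeded Ctsd in all 6 libraries of 4-week monocytes, without overlap, and in all 6 of CD45.1 monocytes, with overlap. Ctsa with 49.2, Ctsh with 45.4 and Ctsl with 34.4 FPKM formed a lower group, and Ctsk was last with 4.39 FPKM, rank 8692.

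**Figure D1:**
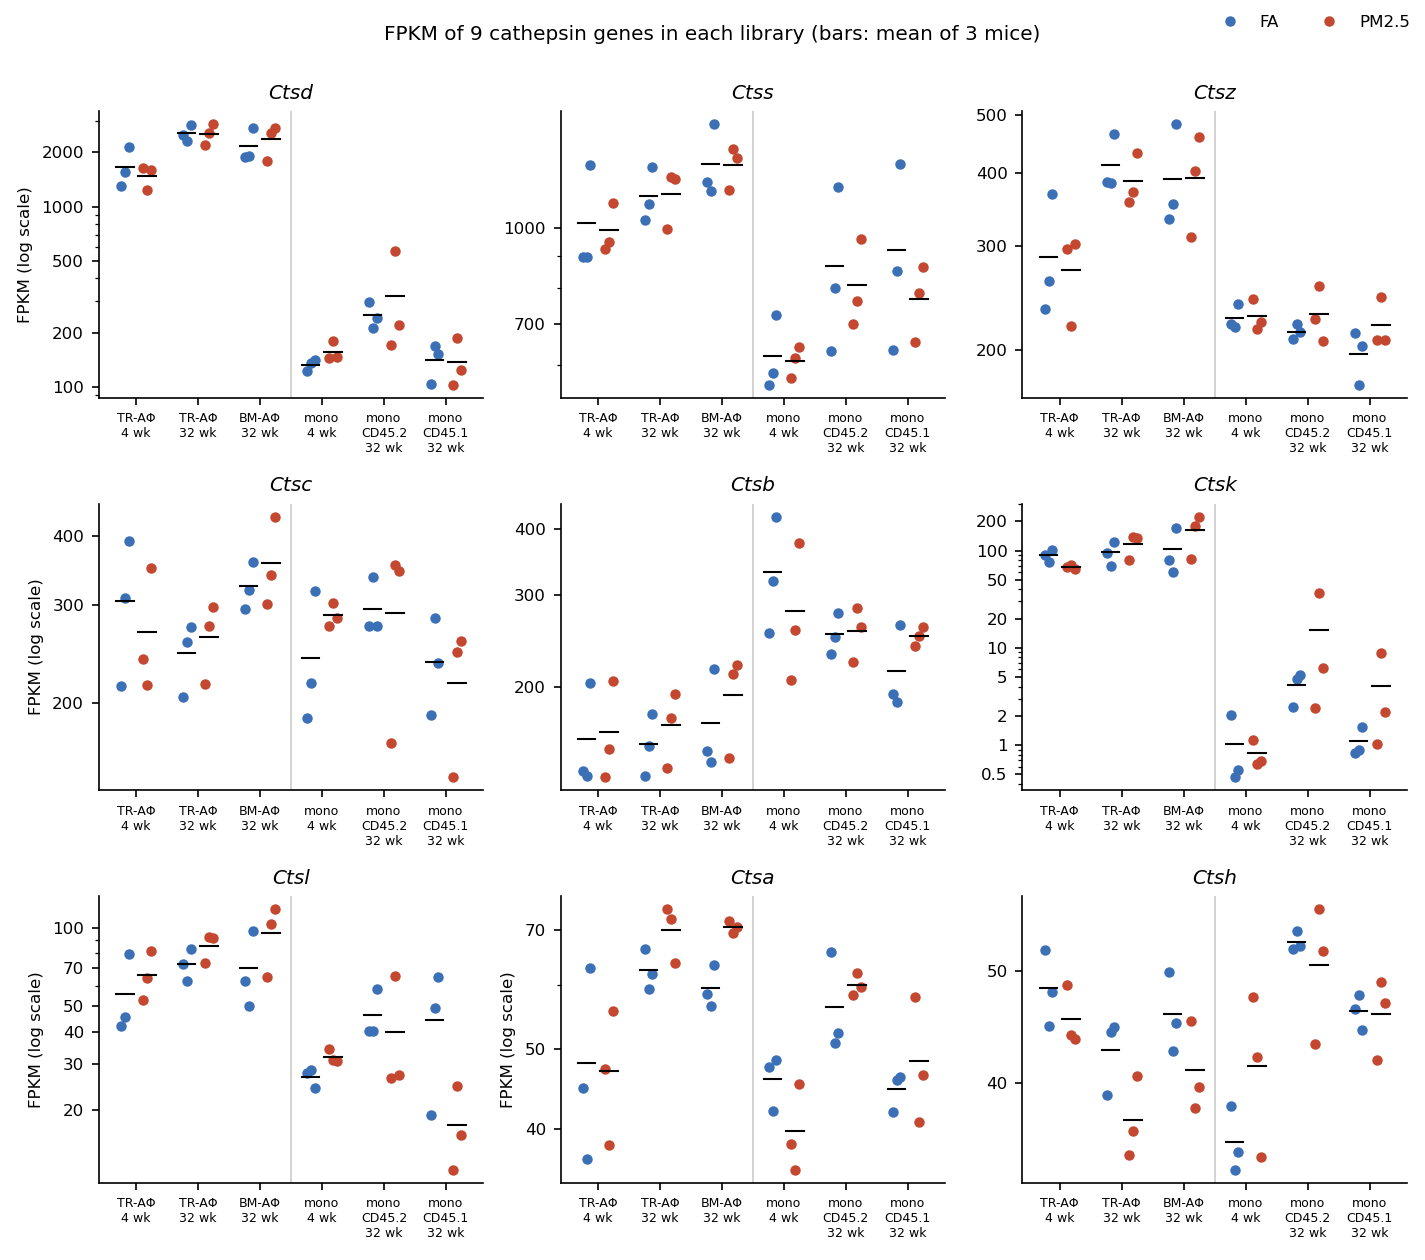
FPKM (log scale) of the 9 cathepsin genes in the 36 libraries, by cell population (TR-AΦ, BM-AΦ and monocytes at 4 or 32 weeks) and exposure (blue, FA; red, PM2.5); points are mice and bars the mean of 3. Ctsd and Ctsk in AΦ stand above every monocyte library, whereas Ctsh lies within 33.7 to 56.5 FPKM in all 36.

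The 9 genes together took a larger part of the AΦ transcriptome. Their summed FPKM had a median of 4307 in AΦ (range 2983 to 5628) and of 1809 in monocytes (range 1446 to 2444), without overlap, and made up 0.117% to 0.290% of the FPKM of an AΦ library and 0.0437% to 0.0990% of that of a monocyte library. The make-up of the sum differed as well. Ctsd supplied a median of 47.9% of it in AΦ (41.2% to 55.1%) and 9.31% in monocytes (6.71% to 23.2%). Ctss supplied 26.4% in AΦ (22.6% to 31.8%) and 41.7% in monocytes (31.2% to 55.7%). Ctsb, a 3.77% contributor in AΦ, supplied 13.5% in monocytes. Ctsz was the steadiest member of the AΦ mixture, at 7.37% to 8.71% of the sum in all 18 AΦ libraries.

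**Figure D2:**
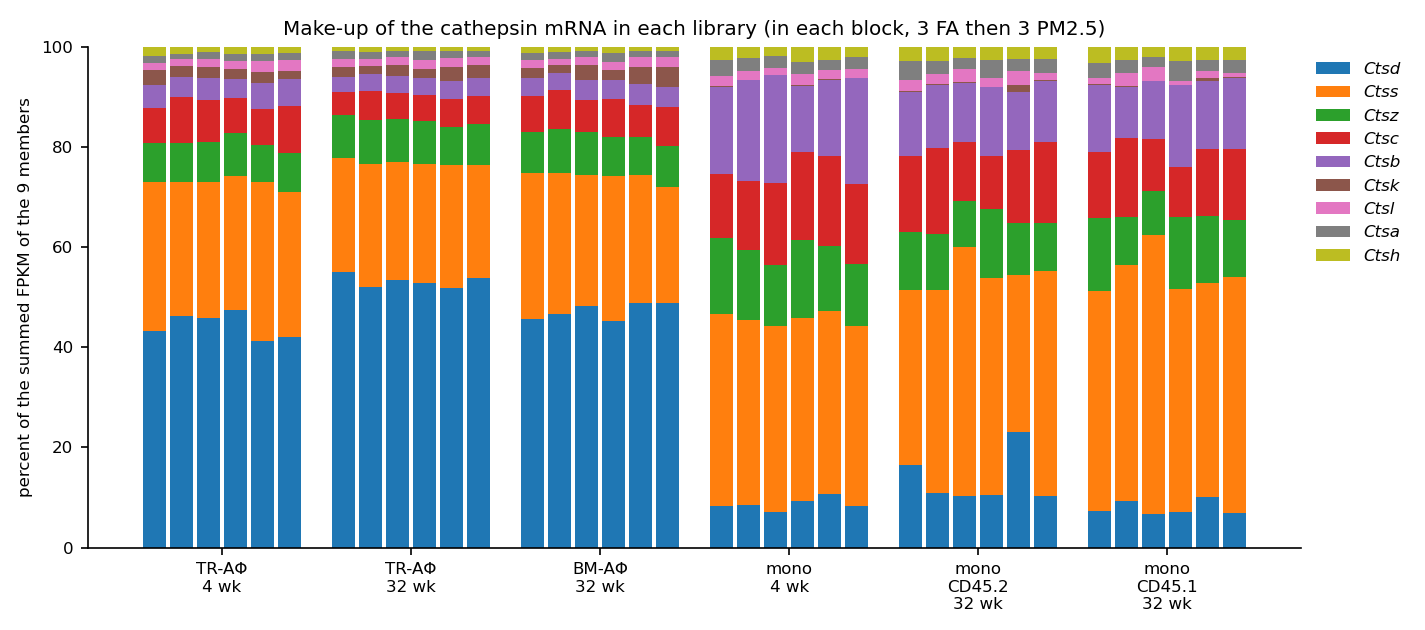
Percent of the summed FPKM of the 9 cathepsins that each gene supplied, 1 stacked bar per library, in blocks by population with 3 FA libraries before 3 PM2.5 libraries. Ctsd (blue) fills 41.2% to 55.1% of AΦ bars and, in all monocyte libraries, at most 23.2%.

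AΦ were first compared with monocytes of the same time and, at 32 weeks, of the same CD45 allele. TR-AΦ at 4 weeks had 5 cathepsins higher and 1 lower than 4-week monocytes, against a background of 22.6% of 13307 genes called higher and 25.5% called lower. TR-AΦ at 32 weeks had 5 higher and 2 lower than CD45.2 monocytes (background 23.6% and 23.7%). BM-AΦ had 7 higher and 0 lower than CD45.1 monocytes (background 27.1% and 23.8%), and 1 member, Ctsb, had a negative difference there with an unadjusted p under 0.05 (0.0357). The median difference over the 9 members was 0.29, 0.46 and 0.62 on the log2(FPKM + 1) scale in the 3 comparisons, and that over all genes tested was -0.02, 0.00 and 0.03. A call is an adjusted p of at most 0.05 in limma's moderated test. In bulk libraries fewer cells with an mRNA and less mRNA per cell cannot be told apart.

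Ctsk and Ctsd separated the cell types most. Ctsk, the collagenolytic cysteine protease, was at 64.8 to 101 FPKM (median 73.3) in TR-AΦ at 4 weeks and at 0.469 to 2.04 (median 0.669) in 4-week monocytes. It was at 70.1 to 138 FPKM (median 109) in TR-AΦ at 32 weeks and at 2.43 to 37.1 (median 5.02) in CD45.2 monocytes. In BM-AΦ it was at 59.7 to 223 FPKM (median 126) and in CD45.1 monocytes at 0.836 to 8.78 (median 1.29). None of these pairs of ranges overlapped. The differences were 5.40 ± 0.42 (SE; adjusted p = 2.11e-11), 3.89 ± 0.42 (1.13e-08) and 5.37 ± 0.42 (2.66e-11), and the mean FPKM was 85.3, 11 and 52.1 times as high in AΦ. The smallest of these ratios rests partly on 1 library, the CD45.2 monocytes of PM2.5 mouse 1 at 32 weeks, with 37.1 FPKM. That library had the highest sum of AΦ markers of any monocyte library, 1675 FPKM. Without it the difference was 4.38 in place of 3.89.

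Ctsd, the main aspartic protease of lysosomes, was at 1229 to 2131 FPKM (median 1575) in TR-AΦ and at 122 to 179.8 (median 143) in monocytes at 4 weeks. At 32 weeks it was at 2208 to 2862 (median 2523) in TR-AΦ and 171 to 567 (median 231) in CD45.2 monocytes, and at 1799.8 to 2737 (median 2237) in BM-AΦ and 103 to 187 (median 139) in CD45.1 monocytes. The lowest AΦ library thus lay above the highest monocyte library in each pair. Ctsd was higher in AΦ by 3.42 ± 0.22 (adjusted p = 3.72e-13), 3.26 ± 0.22 (1.27e-12) and 4.02 ± 0.22 (1.71e-14).

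Ctsl, Ctss and Ctsz were higher in AΦ by smaller steps. Ctsl was at 42.2 to 81.2 FPKM in TR-AΦ at 4 weeks against 24.2 to 34.4 in monocytes, at 62.7 to 91.8 against 26.6 to 65.1 at 32 weeks, and at 50.1 to 117 in BM-AΦ against 11.8 to 64.6. The last 2 pairs overlapped. Its differences were 0.99 ± 0.26 (adjusted p = 0.00223), 0.93 ± 0.26 (0.00376) and 1.57 ± 0.26 (1.05e-05). Ctss, the invariant-chain protease, was higher in AΦ by 0.70 ± 0.16 (adjusted p = 0.000505), 0.46 ± 0.16 (0.0172) and 0.62 ± 0.16 (0.00168). The second of these calls was lost when FA mouse 0 of the CD45.2 monocytes was left out (0.36, adjusted p = 0.0651) and when only the groups compared were fitted (adjusted p = 0.0537). Ctsz was higher at 32 weeks, by 0.84 ± 0.12 in TR-AΦ (adjusted p = 2.37e-06) and 0.89 ± 0.12 in BM-AΦ (9.26e-07), without overlap. At 4 weeks its difference was 0.28 ± 0.12 (adjusted p = 0.0603), but ranged from 0.19 to 0.73 over 19 alternatives and was called in 5 of them: quantile normalization (0.73, adjusted p = 0.000625), rescaling to equal totals (0.60, 0.0032), a replicate block (0.027), and without FA mouse 0 or PM2.5 mouse 1 of the TR-AΦ.

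Ctsb was lower in TR-AΦ than in monocytes at both times. It was at 134 to 205 FPKM (median 145) in TR-AΦ and 206 to 422 (median 288) in monocytes at 4 weeks, a difference of -0.90 ± 0.17 (adjusted p = 5.15e-05), and of -0.47 with quantile normalization (0.0327). At 32 weeks it was at 135 to 194 FPKM in TR-AΦ and 223 to 283 in CD45.2 monocytes, a difference of -0.65 ± 0.17 (adjusted p = 0.00195). Neither pair overlapped. In BM-AΦ against CD45.1 monocytes, at 144 to 220.2 and 187 to 262 FPKM, the difference of -0.37 ± 0.17 missed the threshold (adjusted p = 0.067). It was called in 2 of 18 alternatives and changed sign in 1.

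Ctsh, Ctsa and Ctsc depended on the comparison. Ctsh was higher in TR-AΦ than in monocytes at 4 weeks (0.29 ± 0.08, adjusted p = 0.00604) and lower at 32 weeks (-0.37 ± 0.08, adjusted p = 0.000658), and its difference between BM-AΦ and CD45.1 monocytes was -0.09 ± 0.08 (adjusted p = 0.418). Ctsa differed by 0.13 ± 0.11 (adjusted p = 0.357) and 0.19 ± 0.11 (0.176) in the CD45.2 comparisons and was higher in BM-AΦ than in CD45.1 monocytes by 0.48 ± 0.11 (0.000818). Ctsc, the activator of granule proteases, differed by 0.10 ± 0.19 (0.704) and -0.17 ± 0.19 (0.494), and was higher in BM-AΦ by 0.61 ± 0.19 (0.011). Scaling bore on these small differences. With FPKM rescaled to the same total in every library the median of all genes moved from -0.02, 0.00 and 0.03 to 0.17, 0.14 and 0.33. The split of members called higher and lower then became 7 and 1, 6 and 0, and 8 and 0. With quantile normalization it was 8 and 1, 5 and 2, and 7 and 0. Under rescaling Ctsh at 32 weeks in TR-AΦ was at -0.18 and Ctsb at -0.46, and neither was called (adjusted p = 0.187 and 0.0616), whereas in BM-AΦ Ctsb turned to 0.03 and Ctsh to 0.30 (0.0267), the latter below the shift of all genes. Of the other comparisons, rescaling moved the median of all genes by over 0.1 between the monocyte origins (from 0.00 to -0.11), between the origin effects of the cell types (from 0.04 to 0.19) and between PM2.5 and FA in 4-week monocytes (from -0.01 to 0.15).

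**Figure D3:**
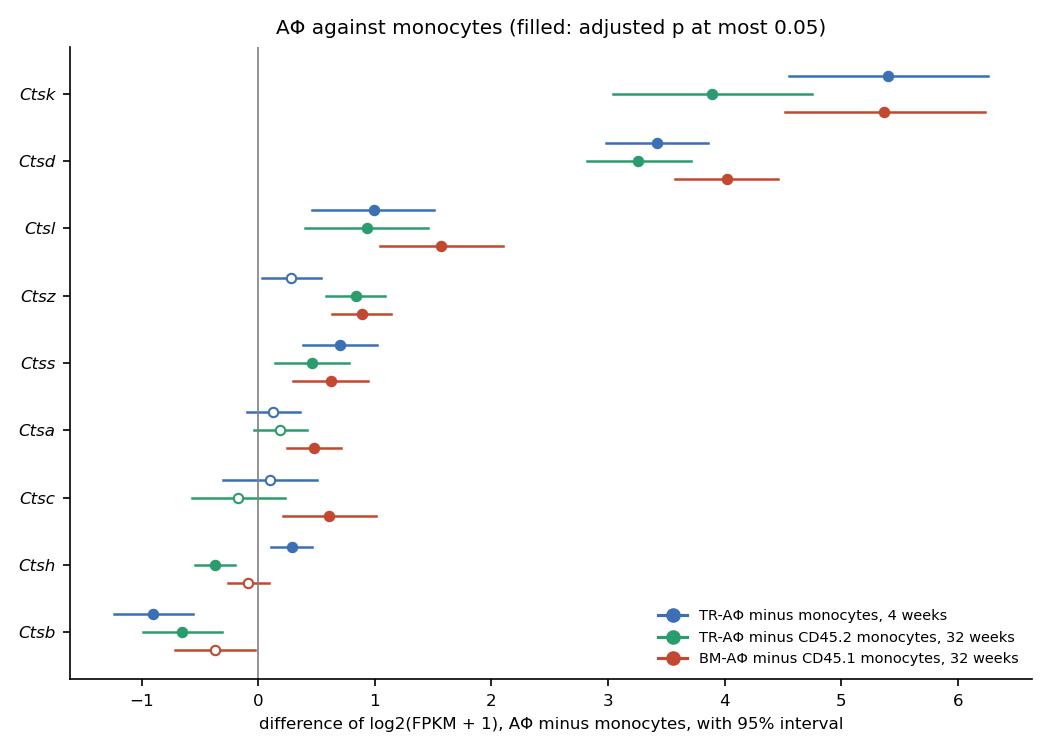
Difference of log2(FPKM + 1) between AΦ and monocytes for the 9 cathepsins, with 95% intervals, in TR-AΦ at 4 weeks (blue), TR-AΦ at 32 weeks (green) and BM-AΦ at 32 weeks (red); filled points passed an adjusted p of 0.05. Ctsk (3.89 to 5.40) and Ctsd (3.26 to 4.02) lie far to the right, and Ctsb (-0.90 to -0.37) is left of 0 in all 3.

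The origin of AΦ at 32 weeks was compared next. Of the 9 cathepsins, 0 were called between BM-AΦ and TR-AΦ (background 0.316% of 12665 genes in either direction), and 1, Ctsc, had an unadjusted p under 0.05, as had 7.45% of all genes. Ctsc was at 295 to 434 FPKM (median 330.0) in BM-AΦ and at 205 to 298 (median 266) in TR-AΦ, ranges that met only at their ends, and differed by 0.42 ± 0.17 (95% interval 0.06 to 0.78; adjusted p = 0.528). Ctsk differed by 0.19 (interval -0.40 to 0.79) and Ctsd by -0.18 (interval -0.54 to 0.17). For all members but Ctsk and Ctsc the 95% interval stayed within 0.54 on either side of 0.

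The same contrast in monocytes gave lower values in CD45.1 cells for Ctsd and Ctsk, none of them called. At 32 weeks 0 of 9 members were called between the CD45 alleles (background 0.669% of 12856 genes in either direction) and 4 had an unadjusted p under 0.05, as had 9.59% of all genes. Ctsd was at 103 to 187 FPKM against 171 to 567, a difference of -0.94 ± 0.25 (adjusted p = 0.142). Ctsk was at 0.836 to 8.78 against 2.43 to 37.1, a difference of -1.28 ± 0.50 (0.376), which was -0.80 without PM2.5 mouse 1 of the CD45.2 cells. Ctsl differed by -0.63 ± 0.29 (0.51; -0.38 without FA mouse 0 of the CD45.1 cells) and Ctsa by -0.32 ± 0.11 (0.308). Markers of other macrophages moved with these values. The summed FPKM of 8 interstitial macrophage markers was 664 to 1394 in CD45.1 and 1254 to 3870 in CD45.2 monocytes, 3 of the 8 were called lower in CD45.1 cells, and so were 2 of 9 AΦ markers tested. Their part in the cathepsin values was not tested. The difference between the origin effects in AΦ and in monocytes called 0 of 9 members by limma (background 1.08% in either direction; 4 had an unadjusted p under 0.05, as had 10.3% of all genes), and was largest relative to its error for Ctsc, at 0.78 (interval 0.21 to 1.34; adjusted p = 0.237).

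Time was compared between 32 and 4 weeks within cells given as CD45.2. Age, duration of exposure, time since transplantation and the day of the experiment cannot be told apart in it. In TR-AΦ, 2 members were higher at 32 weeks and 0 lower (background 2.56% higher). Ctsd was at 1308, 1553 and 2131 FPKM in FA and 1634, 1229 and 1597 in PM2.5 mice at 4 weeks, and at 2493, 2310.4 and 2847 in FA and 2208, 2553 and 2862 in PM2.5 mice at 32 weeks. The 2 times did not overlap. It rose by 0.71 ± 0.17 (adjusted p = 0.0246). Ctsa, the carboxypeptidase, was at 36.8 to 62.9 FPKM at 4 weeks and at 59.3 to 74.2 at 32 weeks, and rose by 0.49 ± 0.12 (adjusted p = 0.0301). Both calls were near the threshold: leaving out any of 5 of the 12 libraries (FA mice 0 and 1 and PM2.5 mouse 1 at 4 weeks, FA and PM2.5 mice 2 at 32 weeks) ended that of Ctsd (adjusted p from 0.0556 to 0.0627), leaving out any of 7 (the same 3 at 4 weeks, FA mice 0 and 2 and PM2.5 mice 0 and 1 at 32 weeks) that of Ctsa (0.0569 to 0.0709), and with FPKM rescaled neither passed (0.0986 and 0.125). Ctsz, at 219.8 to 368 and then 357 to 464 FPKM, missed it with 0.52 ± 0.15 (adjusted p = 0.0549). Ctsh differed by -0.23 ± 0.08 (0.101) and Ctsk by 0.41 ± 0.28 (0.429). Of the 12 AΦ markers 1 was higher at 32 weeks, with a median difference of 0.38 and summed FPKM of 6519 to 9009.9 at 4 and 7748 to 13046 at 32 weeks. Of the 8 interstitial macrophage markers 1 was lower, with a median of -1.58 and sums of 46.9 to 669 and then 25.6 to 79.6 FPKM. Over the 18 AΦ libraries Pearson's r of Ctsd with the summed AΦ markers was 0.83 and that of Ctsa 0.53. The part of these markers in the rises was not tested.

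CD45.2 monocytes at 32 weeks had 4 cathepsins higher than 4-week monocytes and 0 lower (background 7.06% higher). Ctsk was at 2.04, 0.469 and 0.559 FPKM in FA and 1.13, 0.645 and 0.693 in PM2.5 mice at 4 weeks, and at 2.44, 4.73 and 5.31 in FA and 2.43, 37.1 and 6.27 in PM2.5 mice at 32 weeks. It rose by 1.91 ± 0.50 (adjusted p = 0.0188). Ctsd rose by 0.86 ± 0.25 (0.0337), Ctsh by 0.42 ± 0.10 (0.0123) and Ctsa by 0.43 ± 0.11 (0.0174). Ctss differed by 0.42 ± 0.19 (0.171) and Ctsz by -0.03 ± 0.10 (0.881). The call of Ctsd was lost when any of 7 of the 12 libraries was left out (all 3 FA mice and PM2.5 mice 0 and 2 at 4 weeks, FA mouse 0 and PM2.5 mouse 1 at 32 weeks), with an adjusted p from 0.0506 to 0.0825, and without PM2.5 mouse 1 at 32 weeks the difference was 0.61.

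These 4 rises moved with origin and with markers of other cells. With CD45.1 in place of CD45.2 monocytes at 32 weeks, the differences from 4 weeks were 0.63 for Ctsk (adjusted p = 0.551), -0.07 for Ctsd (0.924), 0.26 for Ctsh (0.185) and 0.11 for Ctsa (0.636), and 0 of 9 members were called. Without the PM2.5 libraries 0 and 1 at 4 weeks, which had low Ctse, 1 of 9 was called, Ctsh with 0.55 (0.00753). Of the 8 interstitial macrophage markers 7 were higher in the CD45.2 monocytes at 32 weeks, with a median difference of 3.83, and 5 of 9 AΦ markers tested were higher and 2 lower. Cd163 was at 0.0784 to 3.48 FPKM in 4-week monocytes, 29.3 to 130.3 in CD45.2 and 2.60 to 5.45 in CD45.1 monocytes at 32 weeks. Over the 18 monocyte libraries Pearson's r of log2(FPKM + 1) with the summed interstitial macrophage markers was 0.80 for Ctsh, 0.70 for Ctsk, 0.67 for Ctsd, 0.65 for Ctsa and -0.43 for Ctsb. The libraries share groups, and r is given as a description. The part of these cells in the 4 rises was not tested, and origin and time cannot be told apart in this comparison.

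**Figure D4:**
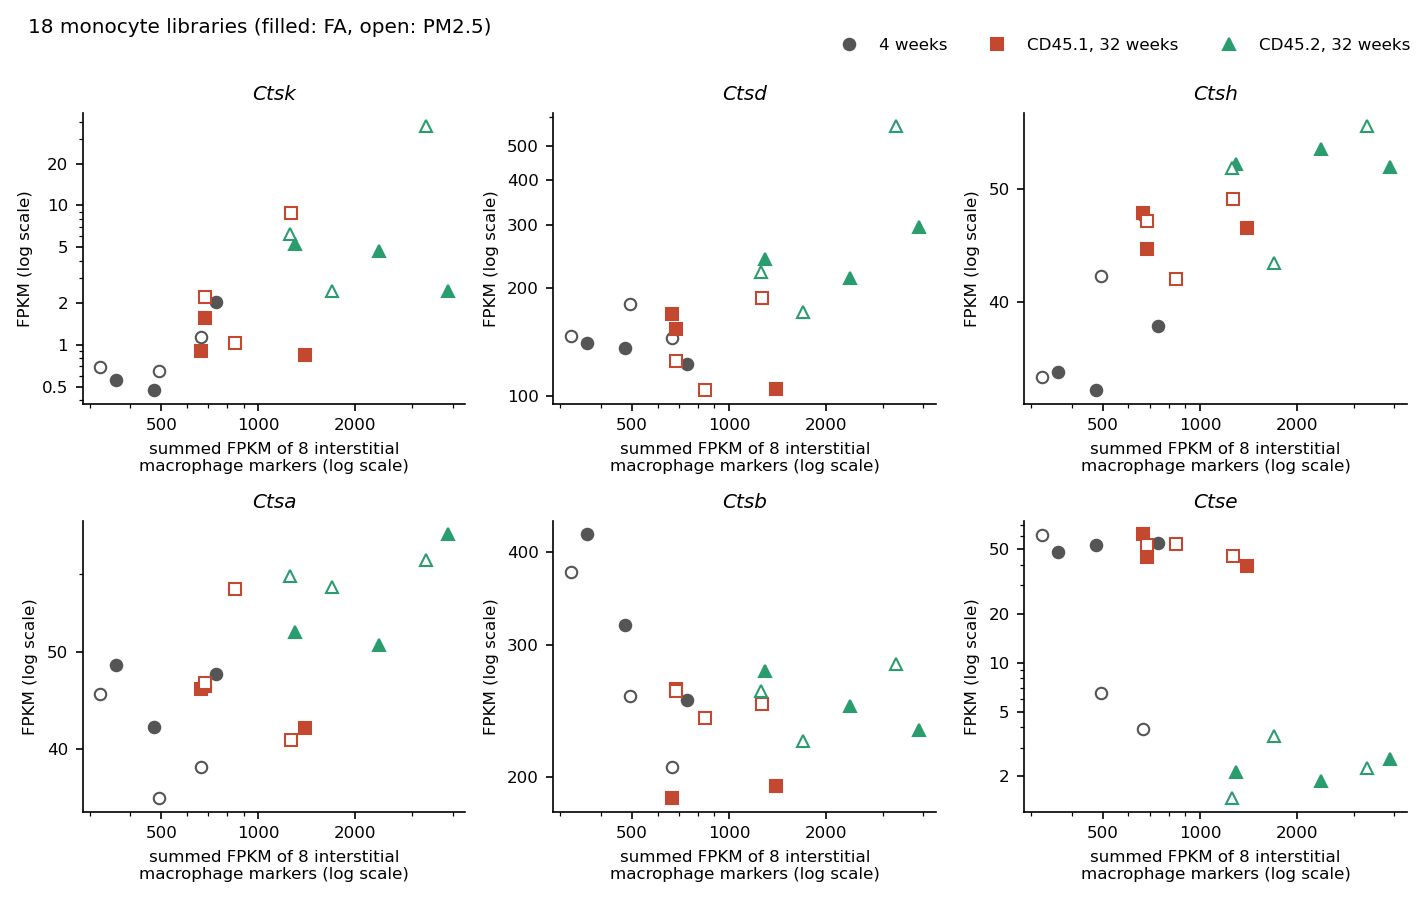
FPKM of 5 cathepsin members and of Ctse against the summed FPKM of 8 interstitial macrophage markers in the 18 monocyte libraries (both log scales; circles, 4 weeks; squares, CD45.1 at 32 weeks; triangles, CD45.2 at 32 weeks; filled, FA; open, PM2.5). CD45.2 libraries at 32 weeks reach marker sums of 1254 to 3870 FPKM, and Ctse falls into a high set of 10 and a low set of 8 libraries.

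The change with time differed between TR-AΦ and monocytes for 2 members, 1 in each direction (background 3.53% higher and 4.35% lower). Ctsh differed by -0.65 ± 0.12 (adjusted p = 0.000775), since it stood at 46.8 FPKM at 4 weeks and 39.9 at 32 weeks in TR-AΦ and at 38.5 and 51.8 in monocytes. Ctsz differed by 0.55 ± 0.17 (adjusted p = 0.0484), with 280.6 and 399 FPKM in TR-AΦ and 227 and 222 in monocytes. The Ctsh call held with CD45.1 monocytes at 32 weeks (-0.49, 0.0347) and without the PM2.5 libraries 0 and 1 at 4 weeks (-0.77, 0.000155). That of Ctsz did not (0.65, 0.0529, and 0.54, 0.0903), and it was lost when any of 20 of the 24 libraries was left out (adjusted p from 0.0534 to 0.101). Of the 8 interstitial macrophage markers 7 were lower in the same test, with a median of -4.77, and their part in it was not tested.

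PM2.5 was compared with FA in each of the 6 populations. Of the 9 cathepsins, 0 were called in any of them. The background was 0.0079% of genes in TR-AΦ at 4 weeks, 0% in TR-AΦ at 32 weeks, 0.0158% in BM-AΦ, 0.00778% in 4-week monocytes and 0% in both CD45.2 and CD45.1 monocytes at 32 weeks, in either direction. Averaged over populations 0 were called in AΦ (background 0.0079%) or monocytes (0.00778%). By limma's unadjusted p under 0.05 there was 1 member among the averages, Ctsh in AΦ (2.95% of all genes there), and 1 among single populations, Ctsl in CD45.1 monocytes (4.74% of all genes). The tests of whether the PM2.5 difference changed with time in TR-AΦ (background 0.0079%) or with origin in AΦ (0.0158%) also called 0 of 9, and 0 had an unadjusted p under 0.05 in limma.

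Ctsl in CD45.1 monocytes was the largest single difference. It was at 19.2, 49.2 and 64.6 FPKM in FA mice and at 11.8, 24.7 and 16.1 in PM2.5 mice, so that the groups overlapped through FA mouse 0. The difference was -1.19 ± 0.41 (95% interval -2.06 to -0.32; adjusted p = 0.946), and from -1.69 without FA mouse 0 to -0.84 without FA mouse 2. In 4-week monocytes it was at 27.9, 28.4 and 24.2 FPKM in FA and 34.4, 31.1 and 30.8 in PM2.5 mice, without overlap, a difference of 0.25 (interval -0.62 to 1.12). As in the 4-week monocytes, mean Ctsl was higher in PM2.5 mice in all 3 AΦ populations. It averaged 55.7 FPKM in FA and 66.1 in PM2.5 mice in TR-AΦ at 4 weeks. The averages were 72.7 and 85.3 in TR-AΦ at 32 weeks, and 69.9 and 95.2 in BM-AΦ. In CD45.2 monocytes at 32 weeks mean Ctsl was lower in PM2.5 mice, at 46.1 FPKM in FA and 39.7 in PM2.5 mice (-0.32, interval -1.19 to 0.55). Averaged over AΦ its difference was 0.32 ± 0.17 (interval -0.04 to 0.68). Averaged over monocytes it was -0.42 ± 0.24 (interval -0.92 to 0.09).

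Ctsk varied most between mice exposed alike. In BM-AΦ it was at 80.8, 59.7 and 171 FPKM in FA mice and at 81.5, 181 and 223 in PM2.5 mice, a difference of 0.66 ± 0.39 (interval -0.18 to 1.5) that was 0.34 without FA mouse 1 and 1.09 without FA mouse 2. In TR-AΦ it was at 90.8, 75.7 and 101 in FA and 68.5, 70.9 and 64.8 in PM2.5 mice at 4 weeks, where the groups did not overlap and the difference was -0.38 (interval -1.22 to 0.47). At 32 weeks it was at 95, 70.1 and 122 in FA and 79.8, 138 and 134 in PM2.5 mice, with a difference of 0.28 (interval -0.56 to 1.13) that was 0.08 without FA mouse 1 and 0.54 without PM2.5 mouse 0. In CD45.2 monocytes at 32 weeks the difference of 0.98 (interval -0.54 to 2.49) became 0.00 without PM2.5 mouse 1.

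Of the averages over AΦ, that of Ctsh had the smallest standard error. Ctsh averaged 48.3 FPKM in FA and 45.4 in PM2.5 mice in TR-AΦ at 4 weeks, 42.7 and 37.2 at 32 weeks, and 45.8 and 41.0 in BM-AΦ, and its average difference was -0.15 ± 0.06 (interval -0.28 to -0.01; unadjusted p = 0.037, adjusted p = 1). Ctsd averaged 2127 FPKM in FA and 2132 in PM2.5 mice over the 3 AΦ populations, a difference of -0.01 ± 0.14 (interval -0.30 to 0.28). In single AΦ populations the intervals of Ctsb, Ctsc and Ctsd reached up to 0.68 from 0 and those of Ctsk and Ctsl further. These ends are not limits of detection, since a call needed a p adjusted over all genes. With 3 mice per group larger differences also went uncalled, such as -1.19 for Ctsl in CD45.1 monocytes (limma's adjusted p = 0.946). In the 4-week monocytes the 2 PM2.5 libraries with a low Ctse level stand in 1 of the 2 groups compared.

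**Figure D5:**
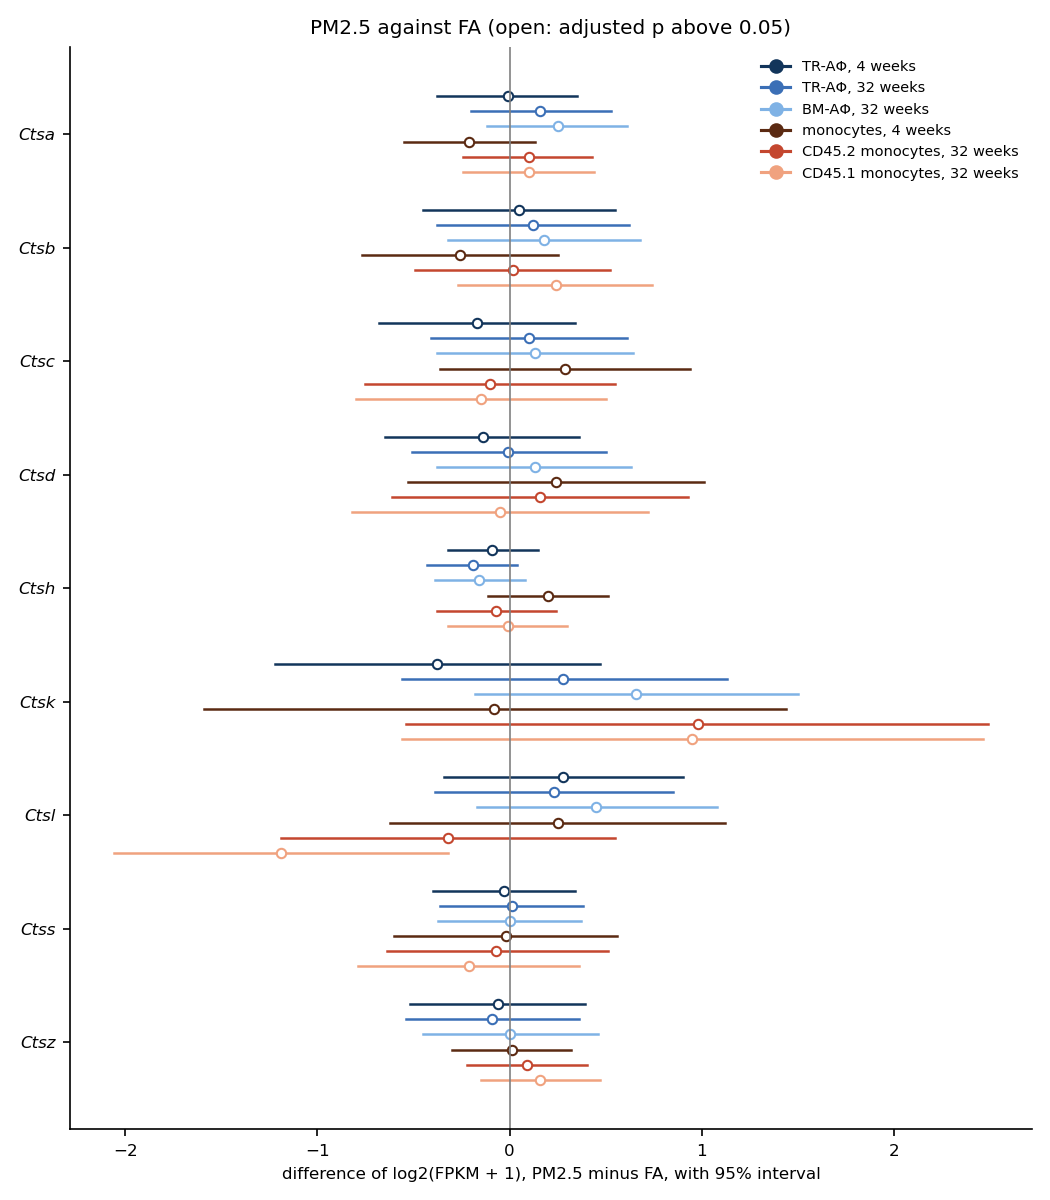
Difference of log2(FPKM + 1) between PM2.5 and FA for the 9 cathepsins in 6 cell populations, with 95% intervals; open points mark an adjusted p above 0.05, which all have. Only the interval of Ctsl in CD45.1 monocytes (-2.06 to -0.32) leaves out 0, and those of Ctsk are the widest.

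The genes around the cathepsins were taken from lists of their partners. Of the other cathepsins, 3 of the 5 listed (Ctse, Ctsf, Ctsg, Ctso and Ctsw) were tested. Ctse was lower in AΦ than in monocytes in all 3 comparisons (-4.10, -1.52 and -3.36 on the log2(FPKM + 1) scale; adjusted p = 1.99e-09, 0.00269 and 8.22e-08). It also differed between the CD45 alleles. At 32 weeks it was at 2.91 to 5.0 FPKM (median 3.94) in BM-AΦ and at 0 to 0.545 in TR-AΦ, where 3 of 6 libraries list it at 0. The difference was 2.11 ± 0.34 (adjusted p = 0.0157). In monocytes CD45.1 cells were higher by 3.95 ± 0.45 (0.000435). The CD45.1 cells come from B6.SJL donors, and Ctse lies 6.4 megabases from Ptprc. Donor strain and marrow origin cannot be told apart in these differences. The summed monocyte markers, at 234 to 371 FPKM in BM-AΦ and 86.8 to 357 in TR-AΦ at 32 weeks, overlapped only through FA mouse 2 of the TR-AΦ (357). The interstitial macrophage markers, at 47.0 to 352 and 25.6 to 79.6 FPKM, overlapped only through FA mouse 1 of the BM-AΦ (47.0) and FA mouse 2 of the TR-AΦ (79.6). The sums of 6 dendritic cell markers, at 8.93 to 29.8 and 1.46 to 4.86 FPKM, did not overlap. The part of such cells in the Ctse difference was not tested. Ctsf, a cysteine cathepsin, was higher in TR-AΦ than in monocytes at 4 weeks by 1.74 ± 0.26 (adjusted p = 3.49e-06) and in BM-AΦ by 1.46 ± 0.26 (3.95e-05), whereas in TR-AΦ at 32 weeks its difference was 0.22 ± 0.26 (0.522), with 5.11 against 4.81 FPKM.

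Carriers and inhibitors differed between the cell types in both directions. Of 8 genes for processing and sorting of cathepsins, 4, 5 and 5 were higher and 3, 2 and 2 lower in AΦ in the 3 comparisons. Of all genes, 22.6%, 23.6% and 27.1% were called higher there, and 25.5%, 23.7% and 23.8% lower. The same shares apply to the other lists of partners in AΦ against monocytes. These lists are short, and counts near the shares are not read as a result. Sort1, which encodes sortilin, was higher by 2.83 ± 0.17 in TR-AΦ at 32 weeks (222 against 30.8 FPKM; adjusted p = 1.94e-13), and Gnptg, a subunit of the enzyme that adds the mannose 6-phosphate tag, by 1.58 ± 0.17 in BM-AΦ (8.61e-09). Lgmn, the legumain that cleaves several cathepsins into their mature chains, was lower in TR-AΦ at 32 weeks, with 55.0 FPKM against 175.7 (-1.63 ± 0.23, adjusted p = 1.57e-06). Igf2r, a mannose 6-phosphate receptor, was low in both cell types at 4 weeks, with 0.710 FPKM in TR-AΦ and 3.49 in monocytes (-1.39 ± 0.32, adjusted p = 0.000804). Of 9 listed cystatins, stefins and serpins that inhibit cysteine cathepsins, 2 passed the filter. Cst3, the secreted cystatin C, was lower in AΦ, with 367 against 1072 FPKM at 4 weeks (-1.55 ± 0.16; 6.12e-09). Cstb, the cytosolic stefin B, was higher in BM-AΦ, with 44.4 against 14.4 FPKM (1.60 ± 0.17; 1.15e-08).

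All 3 partners of the cathepsin A complex were higher in AΦ in each comparison, among them Galns (1.65 ± 0.19 in TR-AΦ at 32 weeks, adjusted p = 4.54e-08) and the neuraminidase Neu1 (1.21 ± 0.12 in BM-AΦ, 1.38e-09). Of the 4 MiT/TFE factors, which bind the CLEAR core, 2 were higher and 1 lower in AΦ in each comparison. Tfec was at 52.4 FPKM in TR-AΦ and 4.06 in monocytes at 4 weeks (3.71 ± 0.41; 1.62e-08), Mitf at 26.8 and 7.46 (1.71 ± 0.21; 9.12e-08), and Tfe3 at 14.1 and 22.2 FPKM at 32 weeks (-0.63 ± 0.11; 2.16e-05). Of 6 genes for the invariant chain and class II, 2 were higher in AΦ at 4 weeks, H2-DMa (1.44 ± 0.22, 3.23e-06) and H2-DMb1 (1.43 ± 0.27, 7.33e-05), and 4 were lower in TR-AΦ at 32 weeks, among them H2-Eb1 (-1.60 ± 0.62, 0.0343) and H2-Aa (-1.26 ± 0.42, 0.0151). All 6 were higher in CD45.2 monocytes at 32 weeks than in 4-week monocytes (background 7.06% higher), although the monocyte gate was MHC II-negative. Of the 5 serine proteases that Ctsc activates, 2 were tested, and Gzma (0.595 against 22.1 FPKM; -2.71 ± 0.62, 0.000676) and Gzmb (0.483 against 12; -2.40 ± 0.48, 0.000153) were lower in AΦ at 4 weeks. At 32 weeks 0 of these 2 were called by limma in either comparison, with adjusted p from 0.727 to 1. The summed FPKM of 7 lymphocyte markers was 1.82 to 20.6 in 4-week monocytes and at most 2.44 in monocytes at 32 weeks, and its part was not tested. Between BM-AΦ and TR-AΦ 0 genes of the sorting, inhibitor, cathepsin A complex, MiT/TFE and class II lists passed limma's test (background 0.316% in either direction).

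The members also differed in what they varied with. Over the 36 libraries the gene nearest to Ctsd by Pearson's r of log2(FPKM + 1) was Krt79 (0.989), itself on the list of AΦ markers, that nearest to Ctsk was Ahnak2 (0.988), and that nearest to Ctss was P4hb (0.930). Ctsz was nearest to Cd68 (0.929), a lysosomal membrane protein of macrophages, Ctsb to the cell cycle regulator Rb1 (0.920), Ctsl to Srpk2 (0.871), Ctsc to Sept7 (0.826), Ctsa to Mcm6 (0.804) and Ctsh to Fcrls (0.731). Over the 18 AΦ libraries Ctsd and Ctsz were nearest to each other of all genes tested (0.970). There Ctsk was nearest to Ptgir (0.945), Ctss to Rnase2a (0.921), Ctsa to Rbm3-ps (0.919), Ctsb to Arcn1 (0.912), Ctsc to Sept7 (0.900), Ctsl to Mfge8 (0.899) and Ctsh to Map4k2 (0.727). With group means removed, r in AΦ was 0.98 between Ctsd and Ctsz, 0.94 between Ctsb and Ctss and 0.93 between Ctsb and Ctsl, whereas that of Ctsh with the other 8 lay between -0.24 and 0.00. In monocytes the same pairs gave 0.36, 0.60 and 0.26. The libraries share groups, and these values are descriptions.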

How the data were processed

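RNA of sorted AΦ and monocytes was sequenced from 36 libraries, 3 in each of 12 groups. The authors trimmed and aligned the reads to mm10 and deposited FPKM per gene from Cufflinks, a value per kilobase of transcript and per mapped fragment of the library. Their processing notes also name STAR and Cuffdiff. Reads and counts were not used here. The study's methods give 1 nominal read number for paired-end sequencing and not the depth of each library, so counting intervals are not given, and whether counting used strand is not stated. No per-sample column was left unused (0). From the deposited FPKM, log2(FPKM + 1) was computed (pseudocount 1), genes averaging under 1 FPKM were left out, and limma 3.58.1 in R 4.3.3 fitted group means with a trended prior: 12665 genes in AΦ, 12856 in monocytes and 13307 in both. P-values were adjusted over all genes by the Benjamini-Hochberg method, with a threshold of 0.05. They rest on the spread between the libraries of a group. Libraries of different populations may share mice, and the main fit treated them as independent. The script was tested on simulated data. All 9 members are named. Of each other list at most 2 genes per direction were named, those with the largest called difference in an AΦ against monocyte or BM-AΦ against TR-AΦ comparison, and nearest genes by Pearson's r. The members and lists were chosen with earlier results of these data known. Alternatives were another pseudocount, no filter, quantile normalization, rescaling to equal totals, only the groups compared, a replicate block and leaving out each library. After seeing the data, CD45.1 monocytes were exchanged for CD45.2 monocytes, and 2 libraries of 4-week monocytes were left out.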

Additional observations from a re-analysis of the deposited data

Results flagged for a closer look

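The change between 4 and 32 weeks differed between TR-AΦ and monocytes for 2 cathepsins, by a test of the difference itself in limma's fit over all genes. Ctsh differed by -0.65 (SE 0.12, adjusted p = 0.000775) and Ctsz by 0.55 (SE 0.17, adjusted p = 0.0484), on the log2(FPKM + 1) scale. The call of Ctsz was lost in 25 of 32 alternatives, among them 20 of the 24 that left out 1 library and quantile normalization (0.34), and 7 of 8 interstitial macrophage markers were lower in the same test.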

How the results depend on the processing

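The counts of members called that changed by more than 1.5 times were these. For the change with time between TR-AΦ and monocytes the count of 2 fell to 1 with quantile normalization, rescaling to equal totals, only the groups compared, CD45.1 monocytes, or without the 2 libraries of 4-week monocytes, and ranged from 1 to 2 when each library was left out. For TR-AΦ over time the count of 2 was 1 with quantile normalization, 0 with rescaling and 1 with only the groups compared, and from 0 to 3 leaving out each library. For monocytes over time the count of 4 was 0 with CD45.1 monocytes, 1 without the 2 libraries, and from 3 to 4 leaving out each library. Over all genes, libraries of the same number, exposure and time had little correlated deviations from their group means (2 of 42 pairs had r over 0.1). The summed FPKM of the members did follow the numbers, so this does not settle whether the numbers pair the samples. With a replicate block the count for the origin effect between cell types was 1 in place of 0 (Ctsc, 0.78). Of the single differences checked with that block, 5 gained a call and 57 did not change. Signs turned for Ctsc in TR-AΦ against monocytes at 32 weeks (0.01 with quantile normalization and with rescaling), Ctsb (0.03) and Ctsh (0.30) in BM-AΦ with rescaling, Ctsz in monocytes over time (0.26 and 0.10) and Ctsd there with CD45.1 monocytes (-0.07). Leaving out each library gave 0.00 to 0.22 for Ctsc at 4 weeks, -0.06 to 0.06 for Ctsd with PM2.5 in all AΦ, -0.02 to 0.41 for Ctsk between AΦ origins, 0.00 to 1.74 for Ctsk with PM2.5 in CD45.2 monocytes, and -0.07 to 0.00 for Ctsz in monocytes over time. The causes were not tested. Pseudocount 0.1 and no filter changed 0 of the calls counted. The deposited values carry no depth.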
